A study of Arabidopsis thaliana with 18 samples.

Results

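IAA29, WES1 and HAT2 are 3 genes of the auxin and shade response, described here in petioles of Arabidopsis thaliana, the leaf stalks that lengthen when rosettes are crowded. They were chosen by symbol in the platform annotation, with earlier results of these data known. They are 3 of the 13356 genes that a probe set names alone. Each had 1 probe set on the array, none shared with another gene: 253423_at for IAA29 (locus AT4G32280), 253908_at for WES1 (AT4G27260) and 248801_at for HAT2 (AT5G47370). By its title, the series concerns how the red to far-red ratio (R:FR) and blue light act as signals when plants compete at high density. All plants were of accession Col-0, with no transgene or mutation named, and grew at 20 °C under 9 h of light and 15 h of dark. The canopy group (3 arrays) stood at 2066 plants per m2 and the single plant group (3 arrays) stood apart, both aged 37 d at harvest. Each of these 6 samples pooled 2 young petioles from each of 4 plants. The other 4 groups were single plants aged 29 d, held for 24 h in low R:FR, in low blue light, in both together (called combined) or in control light, with 3 arrays each. For these, nothing in the labels tells whether replicates came from different plants, and p-values cover only the spread between samples, which may be technical.

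Auxin promotes the elongation of stems and petioles. Aux/IAA proteins such as IAA29 repress the auxin response factors and are degraded when auxin binds its receptor, and many of their genes are themselves switched on by auxin. GH3 enzymes join auxin to amino acids and so lower the pool of free hormone; WES1, also known as GH3.5, is one of them. HAT2 is a transcription factor of the homeodomain leucine zipper class II (HD-ZIP II), a family that includes classical low R:FR response genes, and its own transcript is inducible by auxin. Low R:FR is perceived by phytochrome B, blue light by cryptochromes and phototropins, and the phytochrome-interacting factors (PIFs) act below both phytochromes and cryptochromes.

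Expression was measured on 18 Affymetrix ATH1 arrays and is given as the log2 value that RMA, a routine combining the short probes of a probe set into 1 number, returned for the authors. Differences are compressed at the dim end of this scale. The median of each array, 1.59 to 1.65, was taken as its floor, and a value under it is called below the floor; the file holds no detection calls. Among probe sets with a mean between 1 and 1.5 the 6 group means spanned a median of 0.205, against 0.458 among those with a mean between 3 and 4. Arrays of 1 group correlated at 0.9781 to 0.9939 over all probe sets, lowest for control light replicates 1 and 3. Of the markers of other cell types or organs, RCA (the 1 measured of 5 mesophyll genes) had group means from 10.94 to 11.13 and was called in none of the 4 comparisons with a control. The phloem sugar transporter gene SWEET11 (1 of 4 phloem genes) and the stomatal lineage genes FMA, SPCH and MUTE (3 of 6 epidermal genes) had means over all arrays of 0.98 to 1.75 and were not called in those comparisons either, and none of 4 xylem and fibre genes was named. The root marker PYK10, the 1 measured of 3 root genes, averaged 3.21 ± 0.43 in the canopy and 1.52 ± 1 in single plants (SD, n = 3 each), a log2 change of 1.69 ± 0.45 (SE, limma adjusted p = 0.041). Its part in the canopy results was not tested. In such bulk samples, a change in the share of a cell type cannot be told apart from a change in RNA per cell.

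**Figure D1:**
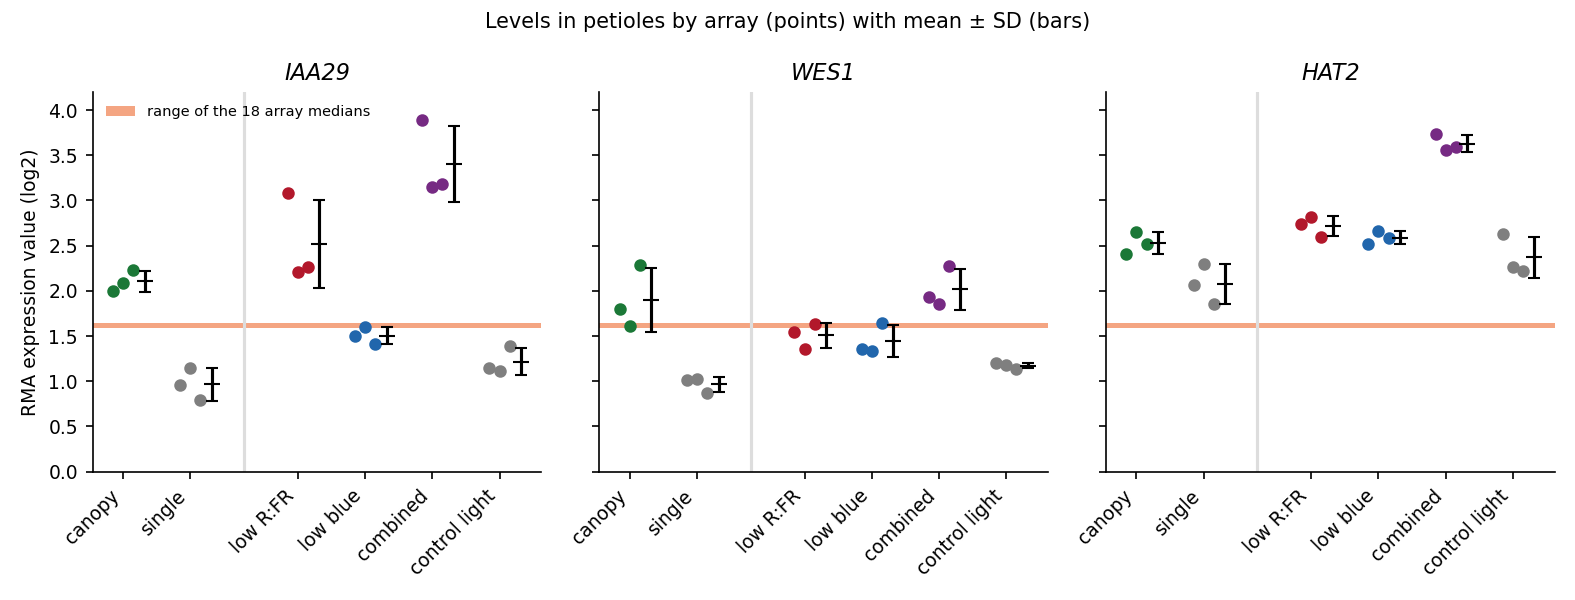
RMA values (log2, vertical axis) of IAA29, WES1 and HAT2 on every array (points) in the 6 groups, with mean and SD (n = 3) beside them; the orange band is the range of the 18 array medians, 1.59 to 1.65. IAA29 lay below its array's own median on all single plant, low blue and control light arrays, WES1 stayed close to or below it on most arrays, and HAT2 was above it on all 18.

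IAA29 was above the floor wherever low R:FR was given and in the canopy, and below it elsewhere. In the canopy it had values of 2, 2.09 and 2.23, against 0.96, 1.15 and 0.79 in single plants. The canopy arrays were all above their floor and the single plant arrays all below theirs, with no overlap. IAA29 read 3.08, 2.21 and 2.26 in low R:FR, 1.5, 1.6 and 1.41 in low blue light, 3.89, 3.15 and 3.18 in combined light, and 1.15, 1.11 and 1.39 in control light. Replicate 1 was the highest of its group in low R:FR and in combined light. In the array's own ranking IAA29 stood between the 70.5 and 76.9 percentiles of all probe sets in combined light and between the 29.2 and 43.7 percentiles in control light. From high to low, the group means ran 3.41 in combined light, 2.51 in low R:FR, 2.1 in the canopy, 1.5 in low blue, 1.22 in control light and 0.96 in single plants. The ranges of low R:FR and canopy overlapped, as did those of control light and single plants, and the other neighbours in this order did not. Of all probe sets, 7.89% had combined arrays all above low R:FR, and 6.27% had low blue arrays all above control light. The share for canopy and low blue was not computed. These means spanned 2.44, a span that 0.47% of all probe sets reached.

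The canopy raised IAA29 by 1.14 ± 0.21 on the log2 scale (SE), a 2.2-fold rise with a 95% interval of 1.62 to 3 (limma adjusted p = 0.0038). In that comparison 2.11% of all probe sets were called higher, and in 9.3% the canopy arrays were all above the single plant arrays. Low R:FR raised IAA29 by 1.3 ± 0.21, or 2.45-fold (limma adjusted p = 0.0052), where 0.62% of probe sets were called higher. Combined light raised it by 2.19 ± 0.21, or 4.56-fold (limma adjusted p = 2e-05), a change that 0.0484% of probe sets exceeded and where 1.55% were called higher. In low blue light the change was 0.28 ± 0.21, with a 95% interval of -0.16 to 0.73 (limma adjusted p = 0.77; 0.255% of probe sets called higher). IAA29 was thus called in 3 of the 4 comparisons with a control, in each of the 6 fits that left out 1 array of that comparison.

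Since IAA29 lay below the floor in both control groups, the sizes of its changes are uncertain. With every value under a common floor of 1.65 set to that floor (added after seeing the data), its change was 0.45 in the canopy (limma adjusted p = 0.26), 0.86 in low R:FR (limma adjusted p = 0.062) and 1.75 in combined light (limma adjusted p = 0.00041). By its construction this alternative removes the part of each difference that lies below the floor. With each array's own median as the floor, the low R:FR change was 0.87 (limma adjusted p = 0.045), a call that cannot be relied on. Array medians were 1.59 to 1.62 in low R:FR and 1.63 to 1.65 in control light. Probe sets set to these medians therefore differ by construction. That floor called 10697 probe sets in low R:FR, which loosens the adjusted p of all others, HAT2 included.

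Between the light treatments, IAA29 differed by 1.01 ± 0.21 between low R:FR and low blue (limma adjusted p = 0.0095; 2.26% of probe sets called higher), with values of 2.21 to 3.08 in low R:FR and 1.41 to 1.6 in low blue. The low R:FR arrays were thus all above the low blue arrays, as in 9.15% of all probe sets. Adding low R:FR to low blue light raised IAA29 by 1.9 ± 0.21, or 3.74-fold (limma adjusted p = 0.00014; 0.787% of probe sets called higher). Adding low blue to low R:FR gave a change of 0.89 ± 0.21 that missed the threshold (limma adjusted p = 0.087; 0.189% of probe sets called higher), with no overlap between combined arrays (3.15 and above) and low R:FR arrays (3.08 and below), as in 7.89% of all probe sets. This change depended on single arrays: it was 1.18 without low R:FR replicate 1 (limma adjusted p = 0.012), 0.65 without combined replicate 1 (limma adjusted p = 0.28) and 0.74 without low R:FR replicate 2 (limma adjusted p = 0.37).

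WES1 was near the floor throughout and was called higher in 2 settings, the canopy and combined light. It had values of 1.8, 1.61 and 2.29 in the canopy, against 1.01, 1.02 and 0.87 in single plants. The canopy arrays were all above the single plant arrays, as in 9.3% of all probe sets. Canopy replicate 2 was itself just below its floor. Under the light treatments WES1 read 1.54, 1.36 and 1.63 in low R:FR, 1.36, 1.33 and 1.65 in low blue, 1.93, 1.85 and 2.27 in combined light, and 1.2, 1.18 and 1.14 in control light. All combined arrays were above the floor, all control light arrays were below it, and the 2 single treatments lay between them. Combined arrays were all above control light in 7.97% of all probe sets, and low R:FR arrays in 7.58%. The group means ran 2.02 in combined light, 1.9 in the canopy, 1.51 in low R:FR, 1.45 in low blue, 1.17 in control light and 0.97 in single plants. Combined light and canopy, canopy and low R:FR, and low R:FR and low blue overlapped in range, whereas low blue and control light, and control light and single plants, did not. Of all probe sets, 6.27% had low blue arrays all above control light. The share for control light and single plants was not computed.

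In the canopy WES1 rose by 0.93 ± 0.15 (SE), or 1.91-fold with a 95% interval of 1.53 to 2.38 (limma adjusted p = 0.0014). In combined light it rose by 0.84 ± 0.15, or 1.79-fold with an interval of 1.44 to 2.24 (limma adjusted p = 0.0054), the background shares being those given for IAA29. Neither single light treatment gave a call: the change of WES1 was 0.34 ± 0.15 in low R:FR (interval 0.02 to 0.66, limma adjusted p = 0.39) and 0.27 ± 0.15 in low blue (interval -0.05 to 0.59, limma adjusted p = 0.63). The difference between low R:FR and low blue was 0.06, with an interval of -0.26 to 0.38 (limma adjusted p = 0.91). Combined light differed from low R:FR by 0.51 ± 0.15 (limma adjusted p = 0.23) and from low blue by 0.57 ± 0.15 (limma adjusted p = 0.086), neither past the threshold. Its arrays were above all arrays of both, as in 7.89% and 7.06% of all probe sets. With the common floor the change of WES1 was 0.26 in the canopy (limma adjusted p = 0.3) and 0.36 in combined light (limma adjusted p = 0.16), so both calls rest on values under that floor.

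HAT2 was above the floor on all 18 arrays, and of the 4 comparisons with a control it was called in 1, combined light. It had values of 3.74, 3.56 and 3.59 in combined light, 2.74, 2.82 and 2.6 in low R:FR, 2.52, 2.66 and 2.59 in low blue, and 2.63, 2.26 and 2.22 in control light. The lowest combined array, at 3.56, was above the highest of the other light groups, at 2.82. Of all probe sets, 7.89%, 7.06% and 7.97% had combined arrays all above those of low R:FR, low blue and control light. The low R:FR and low blue arrays each overlapped control light, whose replicate 1 was the highest of its group. In the density experiment HAT2 read 2.41, 2.65 and 2.52 in the canopy, against 2.07, 2.3 and 1.86 in single plants. The canopy arrays were thus all above the single plant arrays, as in 9.3% of all probe sets. The group means ran 3.63 in combined light, 2.72 in low R:FR, 2.59 in low blue, 2.53 in the canopy, 2.37 in control light and 2.08 in single plants. Every group below combined light overlapped its neighbour in this order.

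Combined light raised HAT2 by 1.26 ± 0.12 (SE), or 2.4-fold with a 95% interval of 2 to 2.88 (limma adjusted p = 2.4e-05). It rose by 0.91 ± 0.12 when low blue was added to low R:FR (limma adjusted p = 0.0027) and by 1.04 ± 0.12 when low R:FR was added to low blue (limma adjusted p = 2e-04), 1.88-fold and 2.06-fold. These 3 calls held in every fit that left out 1 array and with the common floor, where the combined change was again 1.26. Alone, low R:FR changed HAT2 by 0.35 ± 0.12 (interval 0.09 to 0.61, limma adjusted p = 0.26) and low blue by 0.22 ± 0.12 (interval -0.05 to 0.48, limma adjusted p = 0.65). The 2 single treatments differed by 0.13, low R:FR over low blue, with an interval of -0.13 to 0.39 (limma adjusted p = 0.7). In the canopy the change of HAT2 was 0.45 ± 0.12 (interval 0.19 to 0.71), just short of the threshold (limma adjusted p = 0.051). Without single replicate 2 it was 0.56 (limma adjusted p = 0.021), and without single replicate 3 it was 0.34 (limma adjusted p = 0.25).

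**Figure D2:**
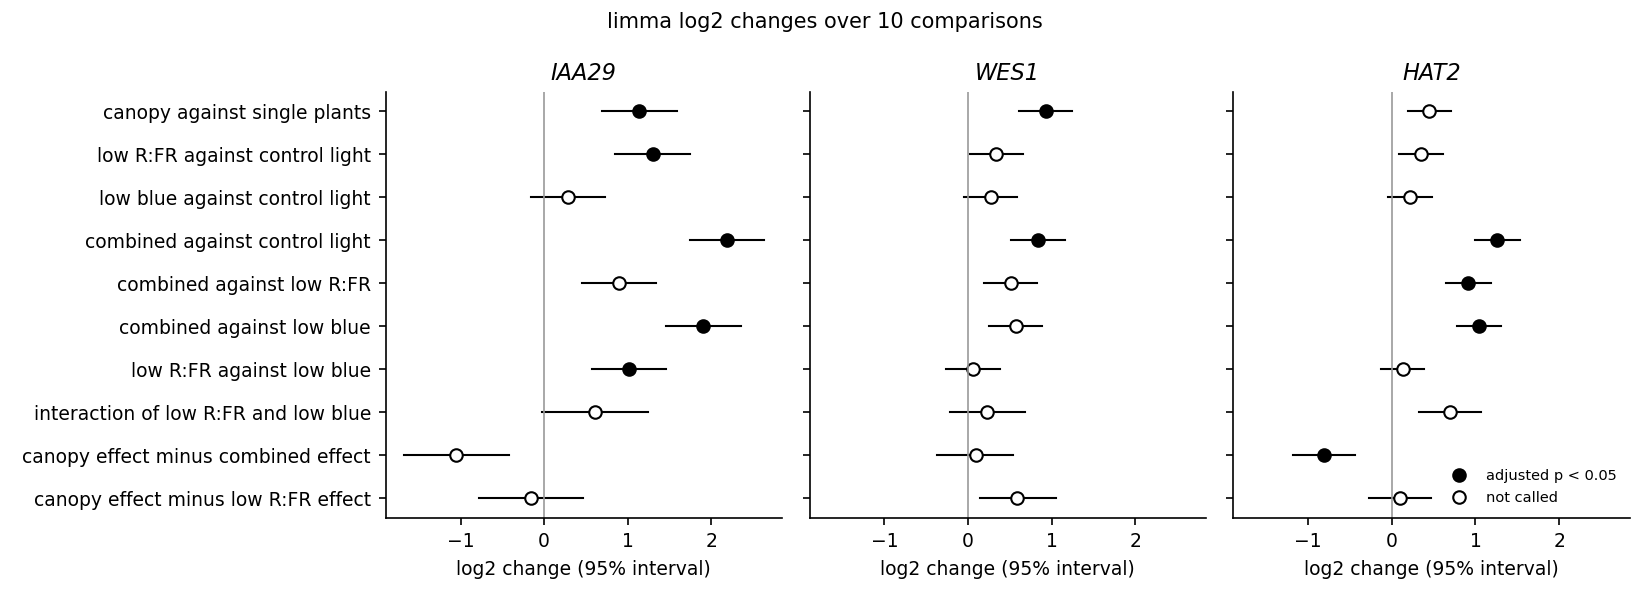
Log2 changes from limma (horizontal axis, points) with 95% intervals (lines) for the 3 genes in 10 comparisons; filled points have an adjusted p under 0.05 over 22746 probe sets. All 3 genes were called in combined against control light, none in low blue against control light, and low R:FR alone called IAA29.

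Side by side, 3 of 3 genes were called higher in combined light (1.55% of all probe sets), 2 of 3 (IAA29 and WES1) in the canopy (2.11%), 1 of 3 (IAA29) in low R:FR (0.62%) and 0 of 3 in low blue (0.255%). The genes were chosen with earlier results of these data known, so the shares do not test them as a set. With the common floor, IAA29 and HAT2 were called in combined light, HAT2 in the canopy (0.45, limma adjusted p = 0.039) and none in low R:FR. That fit tested only the 13337 probe sets above this floor on some array, against 22746 in the main fit. It called 508 of them in combined light and 961 in the canopy, in either direction. The canopy change of HAT2 was 0.45 in both fits, with p-values adjusted over fewer probe sets under the common floor. For low blue, 2187 probe sets had an unadjusted p under 0.05, and limma called 132. The 3 light treatments share their control arrays, so these counts are not independent. Density and light effects share no arrays, and the difference between them was tested directly. For HAT2 the canopy effect was smaller than the combined light effect by a log2 difference of -0.81 ± 0.18 (SE, limma adjusted p = 0.04; 0.8% of probe sets called in either direction). That call ended in 10 of the 12 fits that left out 1 array, with a highest limma adjusted p of 0.1 without control light replicate 2, and the difference lay between -0.94 and -0.7. For IAA29 the same difference was -1.05 ± 0.3 and missed the threshold (limma adjusted p = 0.14). For WES1 the canopy and combined effects were 0.93 and 0.84, a difference of 0.09 with an interval of -0.37 to 0.54 (limma adjusted p = 0.95). The canopy effect minus the low R:FR effect was -0.16 for IAA29 (interval -0.78 to 0.47), 0.59 for WES1 (interval 0.14 to 1.05) and 0.1 for HAT2 (interval -0.27 to 0.47). None of these 3 passed the threshold (limma adjusted p = 0.91, 0.2 and 0.9), where 2.08% of probe sets did in either direction. The experiments also differ in the age of the plants and in the length of exposure, which cannot be told apart from density against light here.

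**Figure D3:**
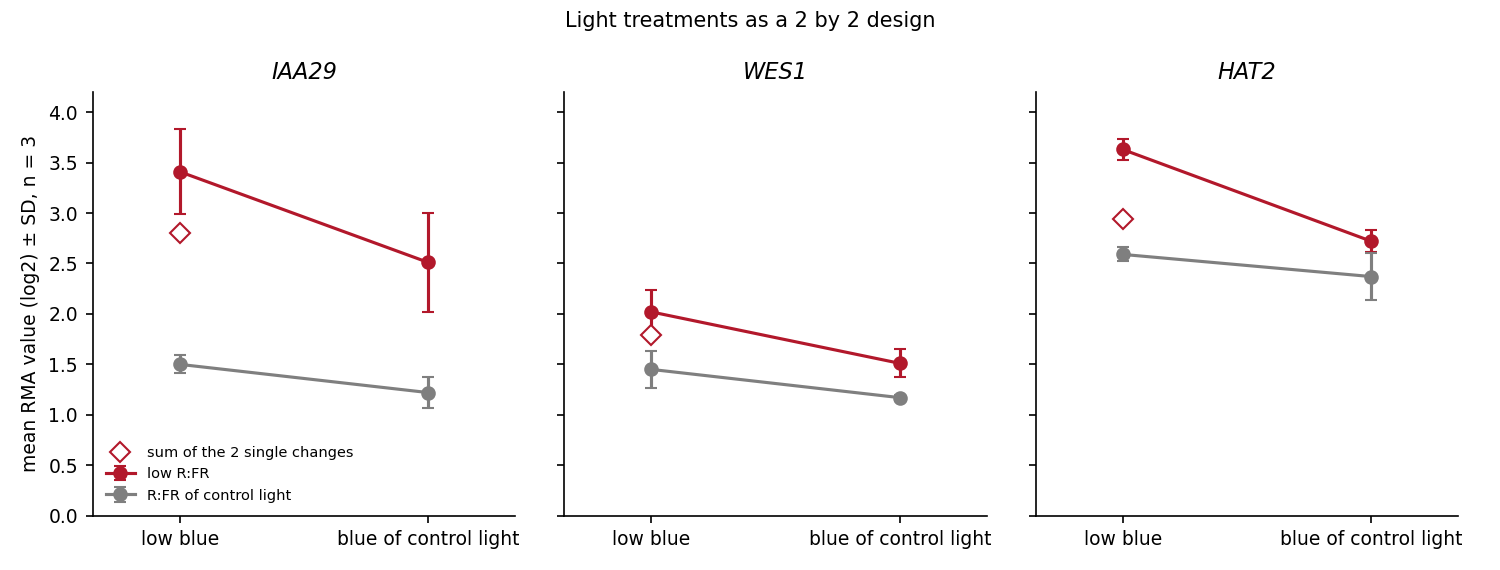
Mean RMA values (log2, SD over 3 arrays) in low blue light (left) and in the blue light of the control (right), with low R:FR in red and the R:FR of control light in grey; the open diamond is the level reached if the changes under the 2 single treatments are added. For HAT2 the combined mean of 3.63 was above the added level of 2.94, and for WES1 the values were 2.02 and 1.79. IAA29 and WES1 were below the floor on all control light arrays, so their added levels are uncertain.

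The light groups form a 2 by 2 design, so the combined change can be set against the sum of the single ones. For HAT2 combined light gave 1.26 where the single changes summed to 0.57, an interaction of 0.7 ± 0.18 on the log2 scale (SE, interval 0.32 to 1.07). For IAA29 it gave 2.19 against a sum of 1.58, an interaction of 0.61 ± 0.3 (interval -0.02 to 1.24). For WES1 it gave 0.84 against a sum of 0.61, an interaction of 0.23 ± 0.21 (interval -0.22 to 0.68). IAA29 was below the floor on all control light and low blue arrays. WES1 was below it on all control light arrays and on 2 of 3 low blue arrays. The sizes of their sums and interactions are therefore uncertain. None of the 3 passed after adjustment (limma adjusted p = 1 for each; unadjusted p = 0.0011 for HAT2, 0.057 for IAA29 and 0.3 for WES1, from limma). By limma, 0% of probe sets (0 of 22746) were called for the interaction, and 811 (3.57%) had an unadjusted p under 0.05. Fits with other settings called at most 2.

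**Figure D4:**
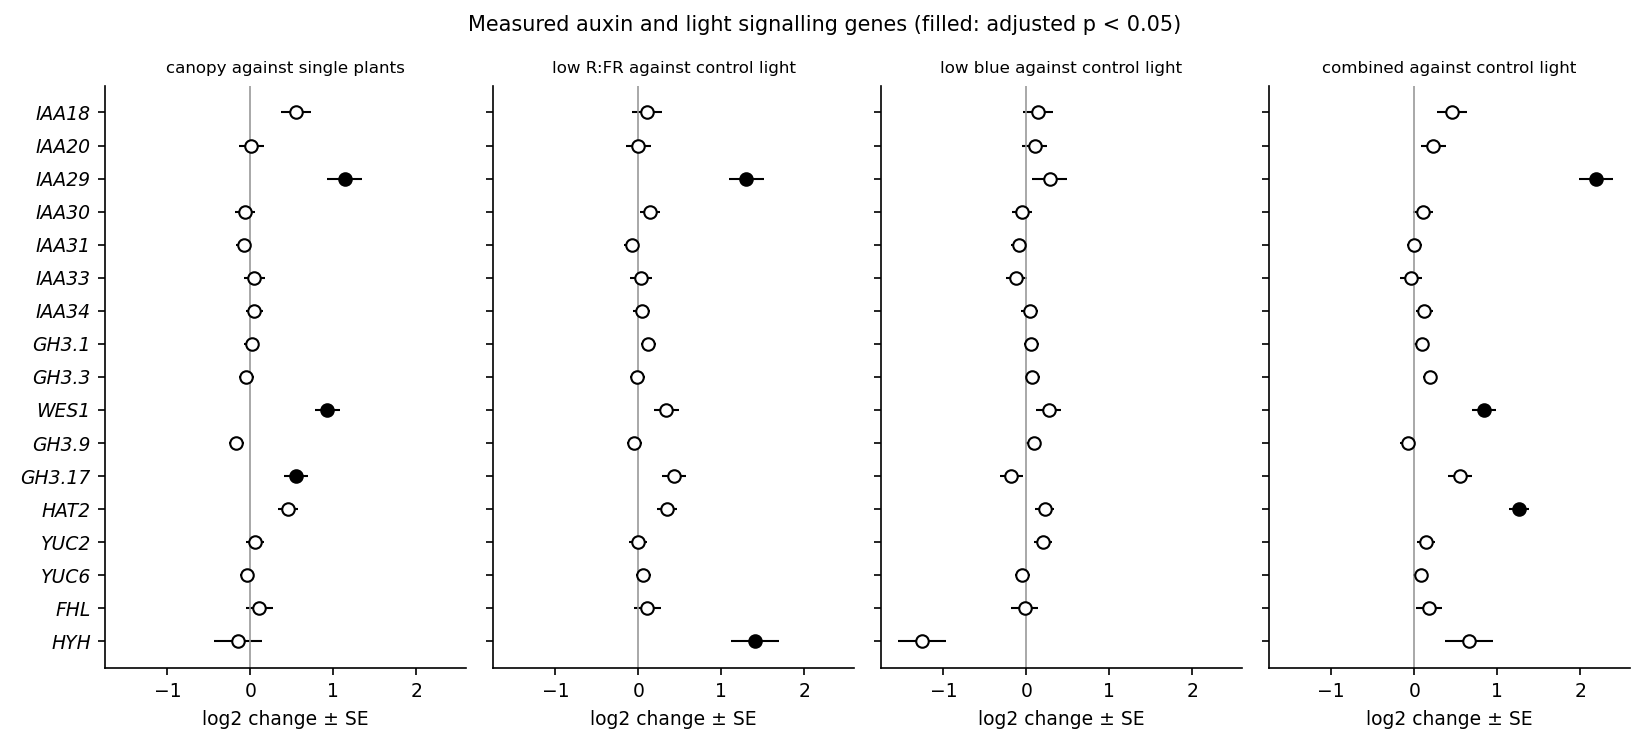
Log2 changes (horizontal axis, points, with SE) of the measured members of the Aux/IAA, GH3, HD-ZIP II, auxin synthesis and light signalling lists in 4 comparisons with a control; filled points have a limma adjusted p under 0.05. IAA29, WES1 and HAT2 stand to the right of most other genes in combined light, and the points of HYH lie on opposite sides of 0 in low R:FR and low blue.

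Few relatives of the 3 genes could be read, since the annotation names 23 of the 133 list entries. Of 29 Aux/IAA genes, 7 had a probe set, and IAA29 was the 1 called in the canopy, in low R:FR and in combined light, where 2.11%, 0.62% and 1.55% of all probe sets were called higher. The other 6 (IAA18, IAA20, IAA30, IAA31, IAA33 and IAA34) had changes from -0.12 to 0.55 over the 4 comparisons with a control. Of these, IAA20, IAA30, IAA33 and IAA34 belong to the Aux/IAA proteins that lack the degron through which auxin triggers their breakdown. All but IAA18 had means over all arrays of 0.94 to 1.11, below the floor. The median change of the 7 was 0.05 in the canopy and 0.12 in combined light, against 0 over all probe sets in both.

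Of 13 GH3 genes, 5 were measured. In the canopy WES1 and GH3.17, an enzyme that conjugates auxin to glutamate, were called higher, GH3.17 by 0.55 ± 0.14 (SE, limma adjusted p = 0.036). The share of all probe sets called higher there was 2.11%. GH3.17 averaged 2.21 ± 0.21 in the canopy and 1.67 ± 0.09 in single plants (SD, n = 3 each). Its single plant values, from 1.59 to 1.77, lay around the floor. In combined light it was higher by the same 0.55 ± 0.14 but missed the threshold (limma adjusted p = 0.052), as did its changes of 0.43 ± 0.14 in low R:FR (limma adjusted p = 0.2) and -0.18 ± 0.14 in low blue (limma adjusted p = 0.79). Against low blue, GH3.17 was called higher in low R:FR (0.61 ± 0.14, limma adjusted p = 0.018) and in combined light (0.73 ± 0.14, limma adjusted p = 0.014). Of all probe sets, 2.26% and 0.787% were called higher in these comparisons. Combined light against low R:FR gave no call (0.12 ± 0.14, limma adjusted p = 0.93). GH3.1, GH3.3 and GH3.9 had means of 0.9 to 1.24, below the floor. Their changes ran from -0.17 to 0.19, with no call in the 4 comparisons with a control. The median change of the 5 was 0.02 in the canopy and 0.19 in combined light. HAT2 was the 1 of 10 HD-ZIP II genes with a named probe set.

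YUC2 and YUC6, flavin monooxygenases of auxin synthesis and 2 of 9 genes in that list, had changes between -0.05 and 0.2 with no call in the same 4 comparisons. Their means over all arrays were 1.23 and 1.04, below the floor, where differences are compressed. Of 17 phytochrome and light signalling genes, FHL and HYH were measured. FHL, which helps to bring phytochrome A into the nucleus, had changes from -0.02 to 0.18 and was not called in any of the 4. It averaged 1.34 over all arrays, also below the floor. HYH, a bZIP factor related to HY5, rose by 1.41 ± 0.29 in low R:FR (limma adjusted p = 0.028), had a change of -1.26 ± 0.29 in low blue (limma adjusted p = 0.063) and one of 0.66 ± 0.29 in combined light (limma adjusted p = 0.35). Against low blue, HYH was called higher in low R:FR (2.67 ± 0.29, limma adjusted p = 3.5e-05) and in combined light (1.92 ± 0.29, limma adjusted p = 0.0023). Combined light against low R:FR gave no call for HYH (-0.76 ± 0.29, limma adjusted p = 0.45). No auxin receptor, auxin response factor, auxin transport or SAUR gene of the lists had a named probe set here.

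**Figure D5:**
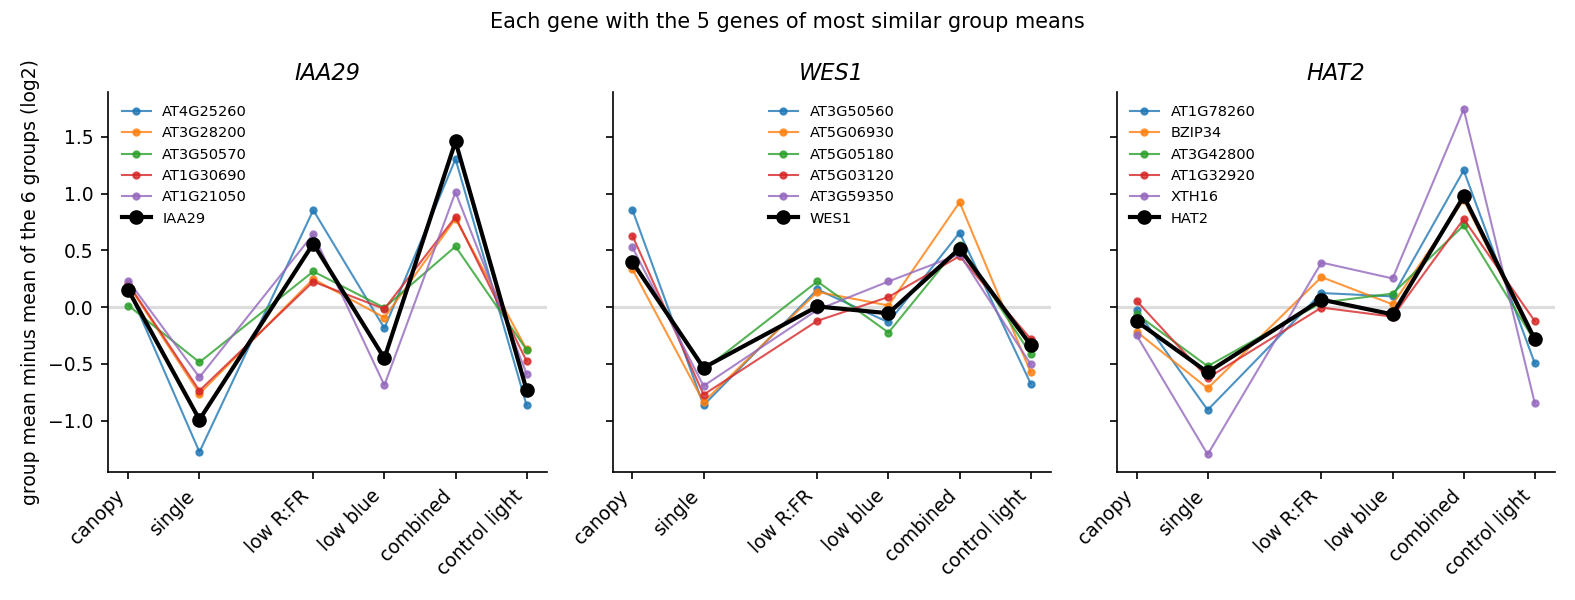
Group means (log2, vertical axis, centred on the mean of the 6 groups) of each gene (black) and of the 5 genes with the most similar group means (colours). Single plants and control light are the lowest groups of IAA29, WES1 and HAT2, and combined light is the highest.

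Among the 459 named genes with a mean of at least 1.5 and group means that span at least 1, the 5 most similar to each gene were found by Pearson's r over the 6 group means. The points share arrays and an experiment, so these are descriptions. IAA29 was closest to AT4G25260 (r = 0.972, and 0.926 over the 18 arrays), followed by AT3G28200, AT3G50570, AT1G30690 and AT1G21050 (r from 0.96 to 0.969). AT4G25260 had group means of 5.65 in the canopy, 4.21 in single plants, 6.34 in low R:FR, 5.3 in low blue, 6.79 in combined light and 4.62 in control light. These levels are far above the floor. Its changes were 1.44 in the canopy, 1.72 in low R:FR, 0.68 in low blue and 2.17 in combined light, a pattern for which it was chosen. The other 4 had changes of 0.5 to 0.96 in the canopy, none of them called. WES1 was closest to AT3G50560 (r = 0.976), then AT5G06930, AT5G05180, AT5G03120 and AT3G59350 (r from 0.949 to 0.968). AT3G50560, at group means from 4.54 to 6.26, had changes of 1.72 in the canopy and 1.33 in combined light, and AT5G05180 of 0.97 and 0.96, which missed the threshold (limma adjusted p = 0.1 and 0.14).

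HAT2 was closest to AT1G78260 (r = 0.98), then BZIP34, AT3G42800, AT1G32920 and XTH16 (r from 0.968 to 0.977). BZIP34, a bZIP transcription factor gene, also correlated at 0.946 with HAT2 over the 18 arrays, and its change in combined light was 1.25 ± 0.14 (SE, limma adjusted p = 8.7e-05). The size of that change is uncertain, since BZIP34 averaged 1.43 in control light, below the floor. Its means in single plants (1.02) and the canopy (1.52) were below it too. XTH16, whose product remodels wall xyloglucan, changed by 2.59 ± 0.33 in combined light (limma adjusted p = 3e-04) and by 1.24 and 1.1 in low R:FR and low blue, neither of which passed (limma adjusted p = 0.099 and 0.18). Over the 6 groups, IAA29 and HAT2 correlated at 0.932, IAA29 and WES1 at 0.87, and WES1 and HAT2 at 0.804.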

How the data were processed

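Petiole RNA of 18 samples (6 groups of 3) was labelled from 100 ng by a 3′ in vitro transcription kit and hybridised to 1-colour ATH1 arrays. The authors deposited log2 values of 22810 probe sets, and the submitters' processing notes name RMA; its software, version and the set of arrays normalized jointly were not found in the labels. The log base was checked on bacterial spike-ins: bioC, bioD and cre exceeded bioB by 1.5, 3.83 and 6.32. Their nominal log2 steps are 1.74, 4.06 and 6.06, and in natural log 1.2, 2.81 and 4.2. Array medians were 1.59 to 1.65, and whether the authors shifted or rescaled the values could not be checked, so fold changes hold on the deposited scale.

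Without 64 control probe sets, 22746 were tested. Of these, 13513 had 1 gene in the platform annotation, 503 several and 8730 none; symbols were updated through RefSeq identifiers. The fit used limma 3.58.1 (R 4.3.3) on all arrays, a mean per group and eBayes (12 residual and 4.41 prior degrees of freedom). P-values were two-sided, Benjamini-Hochberg adjusted within a comparison, and called under 0.05. The fit was tested on simulated data. Genes and lists were chosen with earlier results of these data known. Besides the 3 genes, the rule named called list members (all measured ones in short lists) and the 5 most similar genes; uncalled Aux/IAA and GH3 members are named to complete a count. Alternatives varied the arrays fitted, variance trend, array weights, replicate block, normalization, dim filter and floor, and left out arrays; no gene had another probe set. The main fit did not pair samples by replicate number. Deviations of same-numbered arrays correlated from -0.417 to 0.335 (median 0.054, 45 pairs). Those of differently numbered arrays correlated from -0.414 to 0.445 (median -0.034, 90 pairs). Whether the numbers mark a pairing cannot be told from these ranges, which overlap widely. The number of arrays limits the precision.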

Additional observations from a re-analysis of the deposited data

Results flagged for a closer look

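The canopy effect on HAT2 differed from the combined light effect by -0.81 on the log2 scale (SE 0.18, limma adjusted p = 0.04), which singles it out as a difference between 2 experiments under a like contrast. HAT2 changed by 0.45 in the canopy and by 1.26 in combined light. The difference kept its sign in all 12 fits that left out 1 array and passed the threshold in 2 of them.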

How the results depend on the processing

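Of 486 recomputed changes of IAA29, WES1 and HAT2, 444 kept their side of the threshold without turning sign (5 of them at 0), 22 lost the call, 10 gained one and 10 turned sign, all uncalled before and after. With values below each array's own median set to it, the canopy change was 0.47 for IAA29 and 0.27 for WES1, none called. The combined change was 0.37 for WES1 and canopy minus combined -0.81 for HAT2, uncalled. HAT2 in low R:FR became called, still at 0.35 ± 0.12 (SE). WES1 turned to -0.03 in low R:FR, -0.03 in low R:FR against low blue and -0.1 in canopy minus combined, and IAA29 to -0.01 in low blue. That setting's 10697 calls in low R:FR loosen the adjustment. The common floor of 1.65 tested 13337 probe sets and called 193 in low R:FR. It gave 0.45 for IAA29 and 0.26 for WES1 in the canopy. It also gave 0.86 for IAA29 in low R:FR and 0.36 for WES1 in combined light. None of these was called. This floor called HAT2 in the canopy (0.45) and IAA29 in canopy minus combined (-1.3), with -0.1 for WES1 there.

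The canopy change of HAT2 was called with array weights (0.49), after quantile normalization again (0.47) and with the replicate block (0.45, limma adjusted p = 0.042). It was uncalled with an intensity trend, with only the arrays of the same experiment and with array median floors (limma adjusted p = 0.13, 0.12 and 0.069). The dim filter left it uncalled too (limma adjusted p = 0.051). With 1 array left out it was called in 1 of 6 fits. The block also gave a call for WES1 in combined against low blue (0.57) and changed no other. Array weights gave one for IAA29 in combined against low R:FR (0.96). An intensity trend ended the canopy minus combined call of HAT2 (-0.81). The causes were not tested.

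With 1 array left out, HAT2 in the canopy ran from 0.34 to 0.56, IAA29 in low R:FR from 1.01 to 1.45, WES1 in combined light from 0.72 to 0.93, and IAA29 in combined against low R:FR from 0.65 to 1.18. Canopy minus combined ran from -0.94 to -0.7 for HAT2 and from -0.11 (without canopy replicate 3) to 0.23 for WES1. Canopy minus low R:FR ran from -0.31 to 0.13 (without low R:FR replicate 1) for IAA29 and from -0.03 (without control light replicate 1; -0.01 without single replicate 3) to 0.21 for HAT2. Without both control light replicates 1 and 3, 1 control array remains, assumed to vary like the other groups, so errors grow by construction: IAA29 in low R:FR (1.4), WES1 in combined light (0.84) and canopy minus combined of HAT2 (-0.92) were uncalled, and canopy minus low R:FR of HAT2 was -0.01.

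Of called probe sets, 968 in the canopy became 554 without single replicate 3, 197 in low R:FR became 80 without low R:FR replicate 2 and 472 without control light replicate 1, 132 in low blue became 30 without control light replicate 2, and 514 in combined light became 276 without combined replicate 2. With 1 control array, the last 3 were 37, 18 and 112, canopy minus combined 31 and canopy minus low R:FR 185. Leaving out 1 array gave at least 52 of 102 for combined against low R:FR, 124 of 292 for combined against low blue, 569 of 998 for low R:FR against low blue and 73 of 182 for canopy minus combined. Array weights gave 457 in low R:FR, 200 in combined against low R:FR, 284 in canopy minus combined and 763, against 473, in canopy minus low R:FR. Array median floors gave 72 in low blue, 332 in combined and 78 in canopy minus combined.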
